A study of Mus musculus with 24 samples.

Results

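The p53 pathway genes described here are 36 mouse genes that encode the transcription factor p53, proteins that regulate it, and products of genes listed as p53 targets. Whether p53 activates each of them in mouse AECs, *Ddb2* among them, was not tested. They were chosen by name from a list of p53 regulators and target genes, with earlier results of these data known. Counts of members below are therefore a description of this list. All 36 were found among the 55421 Ensembl identifiers of the deposited count table, and all 36 passed the filter on low counts that left 18046 genes to test. Type 2 alveolar epithelial cells (AEC2s) were isolated from *Krt8+/+* (WT) and *Krt8–/–* (KO) mice, and RNA was sequenced from the fresh cells (day 0) and after 1, 3 and 7 days of 2D culture on a stiff substrate coated with laminin. AEC2s in such culture lose their surfactant genes and pass through a keratin-rich transitional state toward cells that resemble type 1 cells (AEC1s). The library names carry 3 dates, and libraries of the same date are taken here as 1 isolation. The genotypes come from different mice, so between genotypes an isolation stands for a shared date and not for 1 cell preparation. The 3 dates give 3 biological replicates for each of the 8 groups of genotype and day, 24 libraries in all. Every cell of a *Krt8–/–* mouse carries the deletion, so it is not limited to the AEC2s. Age, sex and strain of the mice, and how many mice went into an isolation, were not given in the sources used here.

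p53 is a transcription factor that accumulates when a cell meets DNA damage, ribosomal stress or other insults. It activates genes that arrest the cell cycle, promote apoptosis, adjust metabolism or repair DNA, and among them is *Mdm2*, whose product marks p53 for degradation and so closes a negative feedback loop. In the lung, p53 activity has been described in the transitional cells that arise while AEC2s become AEC1s, and *Cdkn1a*, which encodes the cell cycle inhibitor p21, is a widely used marker of senescence in fibrotic epithelium.

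The deleted gene was checked first. Levels are given as CPM, the counts over the library size scaled by the trimmed mean of M values (TMM), times 1e6. In *Krt8+/+* AECs *Krt8* stood at 485, 552 and 533 CPM in isolations 1, 2 and 3 on day 0, at 3160.2, 3394 and 3071 CPM on day 1, 2599, 3866 and 3344 CPM on day 3 and 4041, 5092 and 2956 CPM on day 7. In *Krt8–/–* AECs it stood at 36.4, 31.1 and 21.2 CPM on day 0, 47.4, 28.5 and 38.6 CPM on day 1, 29.9, 28.7 and 32.2 CPM on day 3 and 29.8, 34.7 and 26.2 CPM on day 7. Every *Krt8–/–* library lay below every *Krt8+/+* library. Library totals ran from 10184439 to 19483386 counts, and a count of 0 allows a level of up to 3 counts, between 0.154 and 0.295 CPM before TMM scaling, which covers counting error only.

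The labelled cell type was checked on marker genes. The 10 AEC2 markers, of which *Sftpc* was the most abundant in every library of days 0 and 1, summed to 265631, 335358 and 349132 CPM on day 0 in *Krt8+/+* AECs, 108685, 19661 and 87388 CPM on day 1, 2762, 960.0 and 1206 CPM on day 3 and 3226, 1061 and 305 CPM on day 7. In *Krt8–/–* AECs the sums were 294938, 297801 and 355462, then 102015, 18436 and 81006, 2093, 1107 and 1103 and 1739, 610.1 and 242 CPM. On day 1 isolation 2 thus stood apart in both genotypes, with the lowest AEC2 sum. Its 10 most abundant genes also took 7.95% (*Krt8+/+*) and 7.11% (*Krt8–/–*) of the counts, against 12.7 to 14.1% in the other day 1 libraries. Markers of other cells were present at several levels. The 9 fibroblast genes summed to 1017, 521 and 300.1 CPM on day 0, 277, 179 and 158 CPM on day 1, 2307, 1742 and 1336 CPM on day 3 and 1886, 3127 and 3834 CPM on day 7 in *Krt8+/+* AECs, with *Dcn* or *Col3a1* the most abundant on day 0 and *Acta2* on day 7. All 9 had counts in each of these libraries. The 10 macrophage genes, led by *Csf1r* on day 0 and *Cd68* on day 1, summed to 53.4, 30.4 and 14.5 CPM on day 0 and 219, 103 and 29.1 CPM on day 1. On day 0 *Marco* had no count in isolations 2 and 3, and *C1qa*, *C1qc* and *Itgax* had none in isolation 3. The 8 ciliated and club cell genes, led by *Scgb1a1* on days 0 and 1 and *Tubb4b* on day 7, summed to 6441, 12719 and 6937 CPM on day 0, 5612, 16673 and 8812 CPM on day 1 and 620.1, 550.3 and 497 CPM on day 7. In *Krt8–/–* AECs the ciliated and club cell sums were 14861, 15304 and 20199 CPM on day 0, above every *Krt8+/+* library of that day, 9147, 12559 and 8629 CPM on day 1 and 562, 563 and 425 CPM on day 7. The 10 AEC1 markers, led by *Ager*, summed to 3554, 3339 and 3669.8 CPM on day 0 in *Krt8–/–* AECs and 2539, 2959.7 and 3131 CPM in *Krt8+/+* AECs, again without overlap. Fibroblast and macrophage sums of the genotypes overlapped on each day. The part of these cells in the values below was not tested, and in bulk RNA fewer cells of a type and less RNA per cell cannot be told apart.

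Sex-linked genes differed between the genotypes in 1 isolation. In isolation 1 *Xist* ran from 62.4 to 79.5 CPM in the 4 *Krt8+/+* libraries and from 5.92 to 12.0 CPM in the 4 *Krt8–/–* libraries, in which Y-linked genes summed to 173 to 191 CPM. In isolation 2 both genotypes had *Xist* between 42.7 and 154 CPM, and in isolation 3 both had Y-linked sums between 174 and 229 CPM. In isolation 1 genotype and sex therefore cannot be told apart for any member. The member *Eda2r* lies on the X chromosome.

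Most of the 36 members rose once *Krt8+/+* AECs were put in culture. On day 1, 26 members were higher than on day 0 and 5 were lower by edgeR at an adjusted p under 0.05, against 26.2% and 28.5% of all 18046 genes tested (54.7% in either direction). On day 3, 23 were higher and 7 lower, against 26.1% and 27.8% of all genes (54.0% in either direction), and on day 7, 25 were higher and 8 lower, against 28.6% and 30.2% (58.8%). The members' median log2 fold change against day 0 was 1.97 on day 1, 1.35 on day 3 and 1.93 on day 7, where the median over all genes tested was 0.00, -0.00 and 0.00. *Trp53*, *Mdm2*, *Ccng1* and *Cdkn1a* were among those called higher on each of the 3 days, and *Btg2*, *Bbc3*, *Sesn1*, *Rrm2b* and *Ddb2* were called lower on each. The comparisons of 1 genotype share their day 0 libraries, so calls on several days are not independent of each other. Without isolation 1 the number lower on day 7 was 5.

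These directions are relative to the TMM scaling. Scaling by library totals in place of TMM raised the median of all genes against day 0 to 0.46, 0.60 and 0.45 on days 1, 3 and 7 in *Krt8+/+* AECs and to 0.47, 0.54 and 0.43 in *Krt8–/–* AECs. Under it 7184 genes were higher and 3115 lower on day 1 in *Krt8+/+* AECs, in place of 4730 and 5144. On day 3 these numbers were 8201 and 2784 in place of 4711 and 5025, and on day 7 7507 and 3810 in place of 5158 and 5453. In *Krt8–/–* AECs they were 7058 and 2772 in place of 4279 and 4852 on day 1, 7768 and 2756 in place of 4586 and 4803 on day 3, and 7332 and 3821 in place of 5162 and 5396 on day 7. Of the members, 28 were then higher and 4 lower on day 3 in *Krt8+/+* AECs, and 27 higher and 4 lower on day 7 in *Krt8–/–* AECs. More members were higher than lower under both scalings on each day in both genotypes. The number lower was smaller with library totals, except on day 1 in *Krt8–/–* AECs, where it was 4 under both.

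**Figure D1:**
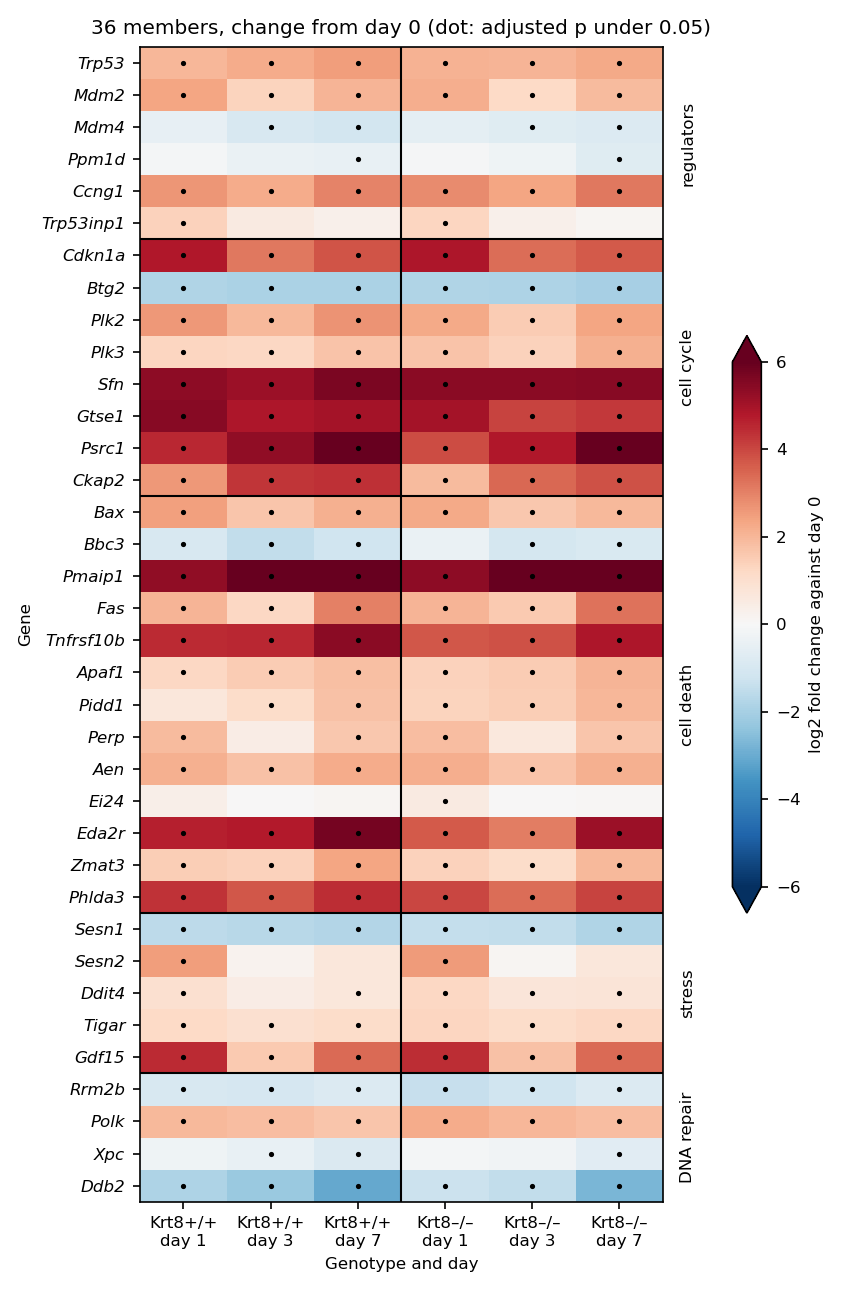
Log2 fold change against day 0 of the 36 members (by role, vertical) in the 6 combinations of genotype and day of culture (horizontal), with a dot where the edgeR adjusted p was under 0.05. On day 1 in *Krt8+/+* AECs 26 members were higher and 5 lower.

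Of the 6 regulators of p53, 4 rose on day 1, 3 rose and 1 fell on day 3, and 3 rose and 2 fell on day 7 in *Krt8+/+* AECs. The shares of all genes were 26.2, 26.1 and 28.6% higher and 28.5, 27.8 and 30.2% lower on these days. Under library totals 4 regulators rose on day 3, and 4 rose and 1 fell on day 7. Of all genes 45.4% then rose and 15.4% fell on day 3, and 41.6% and 21.1% on day 7. *Trp53*, which encodes p53, stood at 22.9, 33.5 and 27.0 CPM on day 0, 109, 122 and 97.6 CPM on day 1, 123.4, 151 and 119.9 CPM on day 3 and 181, 161 and 131 CPM on day 7. Every cultured library lay above every day 0 library. The log2 fold change against day 0 was 1.98 (SE 0.16, adjusted p = 4.86e-09) on day 1 and 2.51 (SE 0.16, adjusted p = 1.25e-10) on day 7 by edgeR, higher in 3 of 3 isolations each time. *Mdm2*, the ubiquitin ligase that marks p53 for degradation, stood at 88.6, 82.0 and 74.1 CPM on day 0, 472, 291 and 491 CPM on day 1, 239, 194 and 187 CPM on day 3 and 306, 300.1 and 407 CPM on day 7. The day 1 libraries lay above those of day 3 without overlap, and all cultured libraries lay above day 0. Its log2 fold change was 2.36 (SE 0.22, adjusted p = 3.87e-08) on day 1, 1.34 (SE 0.22, adjusted p = 2.71e-05) on day 3 and 2.05 (SE 0.22, adjusted p = 1.21e-07) on day 7 by edgeR, higher in 3 of 3 isolations on each day. *Ccng1*, whose product cyclin G1 takes part in the *Mdm2* feedback, stood at 122, 127 and 136 CPM on day 0, 653, 681 and 1050.5 CPM on day 1, 510.2, 627 and 645 CPM on day 3 and 876, 1072 and 1129 CPM on day 7. Cultured and fresh libraries did not overlap, and by edgeR the log2 fold change was 2.63 (SE 0.19, adjusted p = 1.26e-09) on day 1 and 3.00 (SE 0.19, adjusted p = 1.25e-10) on day 7, higher in 3 of 3 isolations both times.

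The remaining regulators moved less. *Trp53inp1*, a cofactor of p53 in stress responses, ranged from 48.8 to 59.9 CPM on day 0 and 89.3 to 207 CPM on day 1, where its log2 fold change was 1.40 (SE 0.30, adjusted p = 0.000573) by edgeR, higher in 3 of 3 isolations. Its values of 0.56 on day 3 and 0.28 on day 7 did not pass. *Mdm4*, a relative of *Mdm2* that restrains p53 as a transcription factor, ranged from 35.6 to 71.1 CPM on day 0 and 20.4 to 29.6 CPM on day 7. It fell on day 3 (log2 fold change -0.98) and day 7 (-1.09), but without isolation 1 these values were -0.66 and -0.67 and neither passed, and under library totals the day 3 value was -0.39 and did not pass. On day 1 its log2 fold change of -0.51 did not pass, and without isolation 3 it was -0.87 and passed. *Ppm1d*, the phosphatase Wip1 that switches p53 off, passed on day 7 with a log2 fold change of -0.47. That call was lost without isolation 1 (-0.55), without isolation 2 (-0.17), under library totals (-0.01), with no filter (-0.43) and with only the groups compared (-0.48).

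The 8 cell cycle genes had the highest median of the 5 roles, with 7 higher and 1 lower on each of the 3 days in *Krt8+/+* AECs and a median log2 fold change of 3.57, 3.71 and 4.09. Among all genes 26.2, 26.1 and 28.6% were higher and 28.5, 27.8 and 30.2% lower on days 1, 3 and 7. The role joins arrest genes like *Cdkn1a* with genes of spindle proteins like *Psrc1* and *Ckap2*, so its median is no measure of arrest. *Cdkn1a*, the gene of p21, stood at 52.3, 60.8 and 41.4 CPM on day 0, 1410.1, 1006 and 1880.4 CPM on day 1, 457, 485 and 428 CPM on day 3 and 697, 679 and 750.4 CPM on day 7. No 2 of these 4 groups overlapped, with day 1 the highest and day 3 the lowest of the cultured days. By edgeR its log2 fold change against day 0 was 3.15 (SE 0.25, adjusted p = 3.35e-09) on day 3 and 3.78 (SE 0.26, adjusted p = 2.56e-10) on day 7, after 4.80 on day 1, higher in 3 of 3 isolations on each day. *Sfn* encodes 14-3-3 sigma, which holds cells before mitosis and is an epithelial protein. It stood at 20.7, 17.7 and 10.7 CPM on day 0, 571, 729 and 747 CPM on day 1, 475, 644 and 634 CPM on day 3 and 968, 988 and 556 CPM on day 7. The lowest cultured library lay far above the highest fresh one, and the cultured days overlapped each other. For *Sfn* edgeR gave a log2 fold change of 5.37 (SE 0.35, adjusted p = 2.48e-10) on day 1 and 5.67 (SE 0.35, adjusted p = 7.03e-11) on day 7, higher in 3 of 3 isolations both times.

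*Gtse1* encodes a microtubule-associated protein that carries p53 out of the nucleus. It stood at 0.636, 1.62 and 1.33 CPM on day 0, 47.4, 34.1 and 68.2 CPM on day 1, 38.4, 35.4 and 24.6 CPM on day 3 and 41.3, 28.5 and 38.2 CPM on day 7. Fresh and cultured libraries were far apart, and by edgeR its log2 fold change was 5.45 (SE 0.41, adjusted p = 1.97e-09) on day 1 and 4.98 (SE 0.40, adjusted p = 2.49e-09) on day 7, higher in 3 of 3 isolations both times. *Psrc1*, which encodes a spindle protein, stood at 0.318, 1.08 and 0.332 CPM on day 0, 7.12, 14.5 and 16.6 CPM on day 1, 24.8, 23.7 and 17.98 CPM on day 3 and 47.6, 45.9 and 57.7 CPM on day 7. Its 4 groups lay in the order of the days with no overlap. By edgeR the log2 fold change against day 0 was 4.53 (SE 0.40, adjusted p = 1.46e-08) on day 1, 5.32 (SE 0.40, adjusted p = 1.52e-09) on day 3 and 6.51 (SE 0.40, adjusted p = 7.19e-11) on day 7, higher in 3 of 3 isolations each time.

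Among the other cell cycle genes, *Ckap2*, which encodes a spindle-associated protein, ranged from 0.867 to 1.99 CPM on day 0 and 18.6 to 31.2 CPM on day 3. The kinase gene *Plk2* ranged from 80.0 to 98.5 CPM on day 0 and 412 to 683 CPM on day 1. *Plk3*, a gene of the same kinase family, ranged from 9.21 to 11.3 CPM on day 0 and 20.5 to 35.8 CPM on day 1. Its rise passed, but without isolation 1 its log2 fold changes of 1.05 on day 1 and 0.95 on day 3 did not pass. *Btg2*, an antiproliferative gene, was the member of this role that fell. It ranged from 316 to 388 CPM on day 0, 82.0 to 126 CPM on day 1 and 77.5 to 101 CPM on day 7, with log2 fold changes of -1.78, -1.89 and -1.91 on days 1, 3 and 7.

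**Figure D2:**
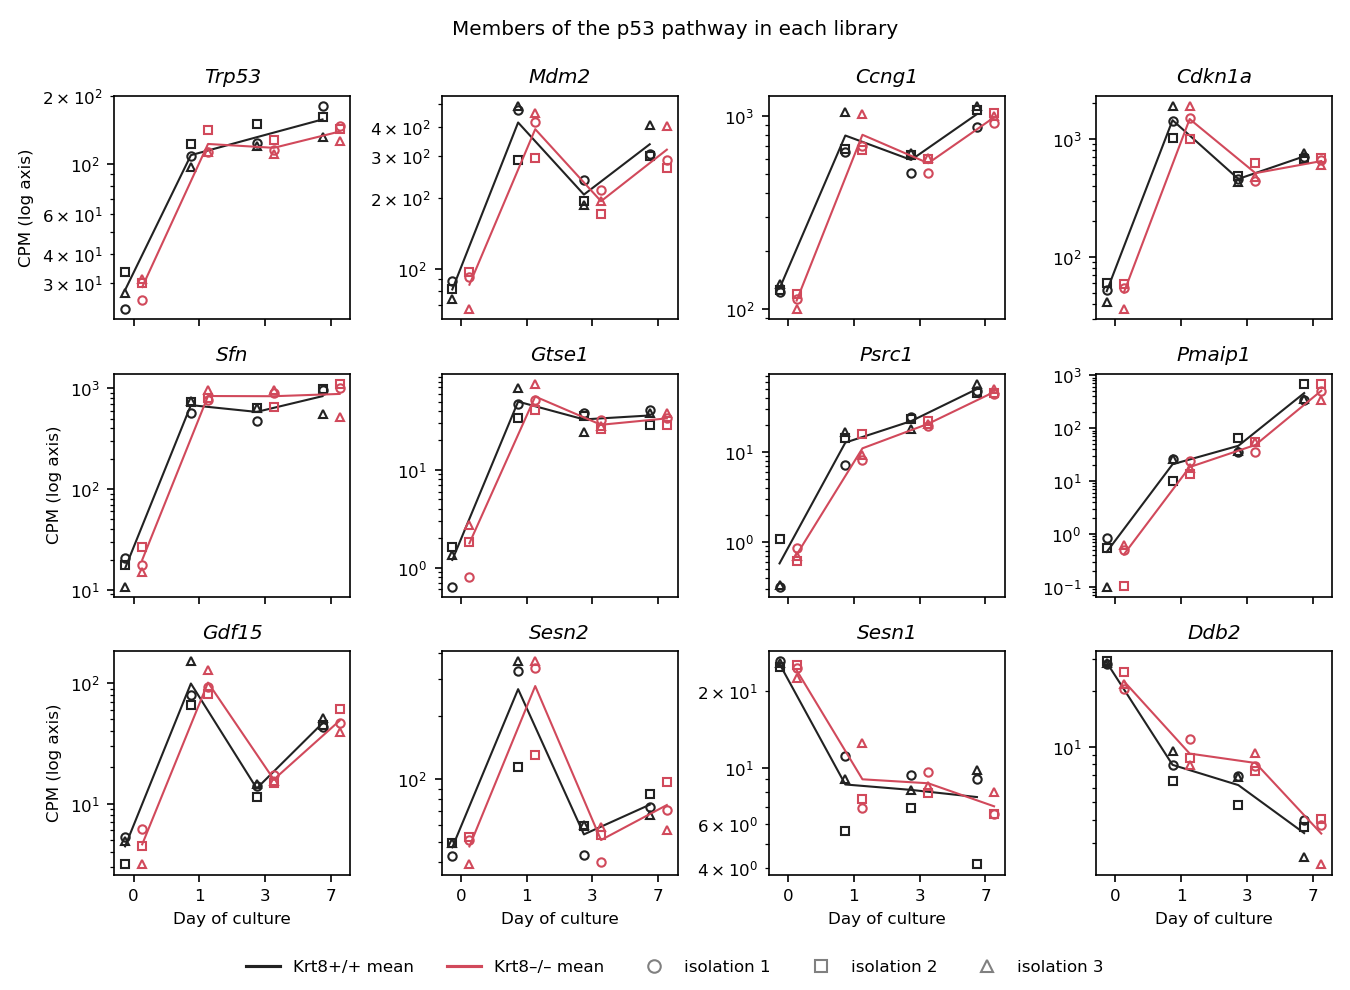
Levels of 12 members (CPM, log axis) by day of culture in *Krt8+/+* and *Krt8–/–* AECs, with a symbol for each isolation, lines through the group means and a level of 0 drawn at 0.1 CPM. *Cdkn1a* was highest on day 1, at 1006 to 1880 CPM in *Krt8+/+* AECs, and *Pmaip1* on day 7, at 334 to 693 CPM.

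Of the 13 cell death genes, 10 rose and 1 fell on day 1, 10 rose and 1 fell on day 3, and 11 rose and 1 fell on day 7 in *Krt8+/+* AECs, with medians of 2.03, 1.54 and 2.23 on the log2 scale. On these days 26.2, 26.1 and 28.6% of all genes rose and 28.5, 27.8 and 30.2% fell. *Pmaip1*, which encodes the BH3-only protein Noxa, had the largest log2 fold change of the 36 members on day 7. It stood at 0.827, 0.542 and 0 CPM on day 0, 25.8, 9.86 and 26.5 CPM on day 1, 36.1, 66.0 and 37.0 CPM on day 3 and 334, 693 and 355 CPM on day 7. The 4 groups were ordered by day without overlap, and the day 7 libraries lay above every day 3 library. By edgeR the log2 fold change was 5.31 (SE 0.60, adjusted p = 4.21e-07) on day 1, 6.46 (SE 0.60, adjusted p = 2.49e-08) on day 3 and 9.78 (SE 0.63, adjusted p = 1.27e-10) on day 7, higher in 3 of 3 isolations each time. *Eda2r* encodes a receptor of the tumor necrosis factor (TNF) family. It stood at 0.699, 0.758 and 0.221 CPM on day 0, 13.3, 18.2 and 12.8 CPM on day 1, 19.02, 17.4 and 11.9 CPM on day 3 and 24.03, 28.4 and 40.7 CPM on day 7. Days 1 and 3 overlapped, and both lay above day 0 and below day 7. Its log2 fold change by edgeR was 4.65 (SE 0.56, adjusted p = 8.8e-07) on day 1 and 5.72 (SE 0.57, adjusted p = 3.8e-08) on day 7, higher in 3 of 3 isolations both times. *Tnfrsf10b*, the mouse gene of the TRAIL death receptor, stood at 0.954, 1.52 and 0.111 CPM on day 0, 12.9, 28.2 and 17.3 CPM on day 1, 18.8, 23.5 and 18.4 CPM on day 3 and 33.8, 45.6 and 34.1 CPM on day 7. All cultured libraries lay above day 0, and those of day 7 above those of days 1 and 3. The edgeR log2 fold change was 4.46 (SE 0.44, adjusted p = 7.33e-08) on day 1 and 5.42 (SE 0.45, adjusted p = 3.61e-09) on day 7, higher in 3 of 3 isolations.

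The other death receptor and effector genes followed. *Fas*, a death receptor gene, ranged from 1.73 to 5.34 CPM on day 0, 10.05 to 14.2 CPM on day 1 and 17.1 to 32.7 CPM on day 7, and its rise on day 3 (log2 fold change 1.23) did not pass without isolation 3 (0.78). *Bax*, whose product opens the outer mitochondrial membrane, ranged from 36.9 to 45.6 CPM on day 0 and 153 to 307 CPM on day 1, where the highest value was that of isolation 2. *Apaf1*, the scaffold of the apoptosome, ranged from 8.52 to 13.03 CPM on day 0 and 33.2 to 43.4 CPM on day 7. *Phlda3*, which encodes an inhibitor of Akt signaling, was chosen here after its values were seen, for the smallest adjusted p of the members on day 1. It ranged from 6.80 to 8.12 CPM on day 0 and 130.0 to 177 CPM on day 1, a log2 fold change of 4.34 (SE 0.15, adjusted p = 4.33e-14) by edgeR, higher in 3 of 3 isolations. *Aen*, a nuclease gene, and *Zmat3*, which encodes an RNA-binding protein, rose on all 3 days, with log2 fold changes of 2.15 and 1.49 on day 1. *Perp*, an epithelial junction gene linked to apoptosis, rose on day 1 (1.89) and day 7 (1.62), and its 0.42 on day 3 did not pass. Under library totals *Perp* passed as higher on day 3 too.

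*Bbc3*, which encodes the BH3-only protein Puma, went the other way from *Pmaip1*. It ranged from 17.7 to 24.3 CPM on day 0 and 6.69 to 8.40 CPM on day 3, where its log2 fold change was -1.49 (SE 0.21, adjusted p = 6.02e-06) by edgeR, lower in 3 of 3 isolations. On day 1 it was -0.94, and without isolation 2 it was -0.54 and did not pass. *Pidd1*, the gene of a death domain protein, rose on day 3 (1.10) and day 7 (1.76), but its day 3 call was lost without isolation 1 (1.08) and without isolation 2 (0.88). *Ei24*, a gene of an endoplasmic reticulum membrane protein, passed on none of the 3 days, with log2 fold changes of 0.34, 0.03 and 0.13. It passed on day 1 with DESeq2 (0.40) and on all 3 days under library totals (0.82, 0.64 and 0.59).

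In the stress and metabolism role 4 of 5 genes rose and 1 fell on day 1 in *Krt8+/+* AECs, against 2 and 1 on day 3 and 3 and 1 on day 7. All genes had 26.2, 26.1 and 28.6% higher and 28.5, 27.8 and 30.2% lower on these days. Under library totals 4 genes of the role rose and 1 fell on day 3, against 45.4% and 15.4% of all genes. *Gdf15*, a secreted stress cytokine, stood at 5.28, 3.14 and 4.87 CPM on day 0, 80.3, 65.9 and 152 CPM on day 1, 14.0, 11.5 and 14.7 CPM on day 3 and 43.4, 44.9 and 51.3 CPM on day 7. The 4 groups did not overlap, and day 3 lay between day 0 and day 7. By edgeR its log2 fold change was 4.47 (SE 0.32, adjusted p = 1.08e-09) on day 1, 1.58 (SE 0.30, adjusted p = 0.000155) on day 3 and 3.38 (SE 0.31, adjusted p = 1.29e-08) on day 7, higher in 3 of 3 isolations each time. *Sesn2* and *Sesn1* both encode sestrins, which restrain the growth kinase mTORC1, and on day 1 they moved in opposite directions. *Sesn2* stood at 42.6, 49.4 and 49.3 CPM on day 0, 328, 114 and 365 CPM on day 1, 43.5, 59.4 and 60.0 CPM on day 3 and 73.8, 85.1 and 67.1 CPM on day 7. Day 1 lay above all other days, lowest in isolation 2, and day 3 overlapped day 0. Its log2 fold change by edgeR was 2.52 (SE 0.37, adjusted p = 9.29e-06) on day 1, higher in 3 of 3 isolations. Its 0.68 on day 7 did not pass, and without isolation 2 a value of 0.68 passed. *Sesn1* stood at 26.3, 24.9 and 25.8 CPM on day 0, 11.1, 5.60 and 9.03 CPM on day 1, 9.38, 6.93 and 8.17 CPM on day 3 and 8.98, 4.15 and 9.81 CPM on day 7. All cultured libraries lay below all fresh ones, and by edgeR the log2 fold change was -1.58 (SE 0.28, adjusted p = 9.11e-05) on day 1 and -1.74 (SE 0.28, adjusted p = 2.27e-05) on day 7, lower in 3 of 3 isolations.

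*Tigar*, whose product lowers glycolytic flux, and *Ddit4*, which encodes an inhibitor of mTORC1, had smaller log2 fold changes than *Gdf15* and *Sesn2* on day 1. *Tigar* ranged from 7.37 to 10.2 CPM on day 0 and 17.9 to 25.3 CPM on day 1, with log2 fold changes of 1.20, 0.97 and 1.08 on days 1, 3 and 7, all past the threshold. *Ddit4* ranged from 15.3 to 20.6 CPM on day 0 and 22.0 to 42.1 CPM on day 1. Its log2 fold change of 0.94 on day 1 passed, but did not without isolation 1 (0.84) or isolation 3 (0.65). On day 7 its 0.67 passed narrowly, and did not without isolation 1 (0.42) or with the isolation as a block (0.67).

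The 4 DNA repair genes were the role in which more members fell than rose: 1 rose and 2 fell on day 1 and 1 rose and 3 fell on days 3 and 7 in *Krt8+/+* AECs, where under library totals 1 rose and 1 fell on days 1 and 3 and 1 rose and 2 fell on day 7. The shares of all genes that fell were 28.5, 27.8 and 30.2% on these days, and 17.3, 15.4 and 21.1% under library totals. The shares that rose were 26.2, 26.1 and 28.6%, and 39.8, 45.4 and 41.6%. With 4 genes, the counts of this role are a description with no test. *Ddb2*, a subunit of the complex that recognizes ultraviolet damage, stood at 28.2, 29.03 and 28.6 CPM on day 0, 7.93, 6.52 and 9.44 CPM on day 1, 6.89, 4.80 and 6.86 CPM on day 3 and 4.02, 3.65 and 2.52 CPM on day 7. Fresh libraries lay above all cultured ones, and day 7 lay below days 1 and 3. By edgeR the log2 fold change was -1.84 (SE 0.23, adjusted p = 1.35e-06) on day 1, -2.21 (SE 0.23, adjusted p = 1.21e-07) on day 3 and -3.07 (SE 0.24, adjusted p = 1.87e-09) on day 7, lower in 3 of 3 isolations each time. *Polk*, which encodes a DNA polymerase that copies past lesions, was the repair gene that rose. It stood at 23.9, 24.05 and 14.2 CPM on day 0, 68.7, 86.9 and 87.8 CPM on day 1, 64.5, 76.1 and 82.8 CPM on day 3 and 61.0, 62.9 and 75.4 CPM on day 7. The cultured libraries lay above the fresh ones and overlapped each other, and edgeR gave a log2 fold change of 1.97 (SE 0.25, adjusted p = 1.65e-06) on day 1, higher in 3 of 3 isolations. *Rrm2b*, the p53-inducible subunit of ribonucleotide reductase, stood at 22.4, 21.3 and 23.7 CPM on day 0, 12.0, 10.7 and 11.7 CPM on day 1, 9.18, 14.5 and 9.53 CPM on day 3 and 11.2, 16.6 and 10.7 CPM on day 7. Fresh libraries lay above cultured ones.

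For *Rrm2b* edgeR gave log2 fold changes of -0.97 (SE 0.26, adjusted p = 0.00414) on day 1 and -1.02 (SE 0.26, adjusted p = 0.00258) on day 3, lower in 3 of 3 isolations. Under library totals its values were -0.50, -0.42 and -0.36 on days 1, 3 and 7, and none passed. On day 7 its -0.81 also did not pass without isolation 1 (-0.72) or isolation 3 (-0.66). *Xpc*, a sensor of helix-distorting damage, ranged from 48.3 to 52.6 CPM on day 0 and 26.4 to 28.8 CPM on day 7, where its log2 fold change was -0.88. On day 3 a value of -0.43 passed but was not past the threshold without isolation 1 (-0.36), isolation 2 (-0.40) or isolation 3 (-0.46), and it was 0.18 under library totals.

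By mean CPM, 12 members peaked on day 1 in *Krt8+/+* AECs, 16 on day 7, 8 on day 0 and 0 on day 3, a description with no test. In *Krt8–/–* AECs these numbers were 13, 15, 8 and 0, and the peak day was the same in both genotypes for 35 of 36 members, all but *Aen*, and for 79.8% of all genes tested. In *Krt8+/+* AECs, 38.1, 26.3, 12.0 and 23.5% of all genes peaked at days 0, 1, 3 and 7. Day 3 was also compared with day 1, and day 7 with day 3, as comparisons added after the values were seen, which share the middle libraries with each other. From day 1 to day 3 in *Krt8+/+* AECs, 3 members were higher and 10 lower by edgeR, against 14.4% and 11.9% of all genes (26.3% in either direction), and under library totals 18.8% and 8.45% of all genes. Members lower numbered 8, 9 and 6 without isolation 1, 2 or 3, and 1 was higher without isolation 3. Of the lower members, *Gdf15*, *Sesn2*, *Cdkn1a*, *Perp* and *Mdm2* passed without each isolation in turn. *Gdf15* fell by 2.89 on the log2 scale (SE 0.29, edgeR adjusted p = 9.03e-07, lower in 3 of 3 isolations) and *Cdkn1a* fell by 1.65 (SE 0.24, edgeR adjusted p = 4.08e-05, lower in 3 of 3 isolations). *Sesn2*, *Perp* and *Mdm2* had log2 fold changes of -2.31, -1.47 and -1.02. The 3 higher members were *Psrc1* (0.79), *Ckap2* (1.69) and *Pmaip1* (1.16), and without isolation 1 none of them passed, at 0.42, 1.15 and 1.49.

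*Psrc1* and *Pmaip1* also did not pass from day 1 to day 3 without isolation 2 (0.84 and 0.48) or without isolation 3 (1.16 and 1.51), and *Ckap2* did not without isolation 2 (1.74). The remaining lower members lost their call without at least 1 isolation. Without isolation 1 these were *Plk2* (-0.55) and *Trp53inp1* (-0.72), and without isolation 2 *Bax* (-0.47), *Aen* (-0.41) and *Phlda3* (-0.60). Without isolation 3 they were *Bax* (-0.83), *Plk2* (-0.54), *Trp53inp1* (-0.62) and *Aen* (-0.35).

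From day 3 to day 7 in *Krt8+/+* AECs, 11 members were higher and 1 lower by edgeR, against 3.11% and 3.47% of all genes (6.58% in either direction), and under library totals 8 were higher and 2 lower, against 1.85% and 5.67% of all genes. The number higher was 6, 2 and 6 without isolation 1, 2 or 3, and the 1 lower member, *Ddb2* (-0.87), lost its call without each of them (-0.92, -1.09 and -0.61). *Pmaip1*, with a log2 fold change of 3.31 (SE 0.42, adjusted p = 7.7e-05), and *Gdf15*, with 1.80 (SE 0.28, adjusted p = 0.000403), were higher in 3 of 3 isolations by edgeR and passed without each isolation in turn. The other 10 called members lost the call without at least 1 isolation. *Mdm2*, for example, had a log2 fold change of 0.71 and values of 0.90, 0.73 and 0.49 without isolation 1, 2 or 3, none past the threshold. For 6 members, namely *Mdm2*, *Plk2*, *Perp*, *Aen*, *Phlda3* and *Gdf15*, the calls ran up on day 1, down to day 3 and up again to day 7, a course that 18 of all 18046 genes had (0.0997%). These successive comparisons share the day 1 and day 3 libraries, and of the 6 members *Gdf15* alone kept all 3 calls without each isolation.

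Between day 1 and day 7 in *Krt8+/+* AECs, 9 members were higher and 6 lower by edgeR, against 20.3% and 19.7% of all genes (40.0% in either direction). Without isolation 1 these counts were 5 and 5, and without isolation 3 they were 5 and 4. *Pmaip1* (4.47), *Psrc1* (1.98) and *Ckap2* (1.81) were higher, and *Sesn2* (-1.84), *Ddb2* (-1.23), *Gdf15* (-1.09) and *Cdkn1a* (-1.01) lower on the log2 scale, with the call held without each isolation. Late culture thus held more *Pmaip1* and less *Cdkn1a* than day 1.

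*Krt8–/–* AECs were compared with their own fresh cells in the same way. On day 1, 28 members were higher and 4 lower by edgeR, against 23.7% and 26.9% of all genes (50.6% in either direction). On day 3 the counts were 24 and 6, against 25.4% and 26.6% (52.0%), and on day 7 they were 25 and 8, against 28.6% and 29.9% (58.5%). The members' medians were 1.98, 1.49 and 1.98 on the log2 scale. The genotypes have separate day 0 libraries, and 30 members passed in the same direction in both on day 1, 29 on day 3 and 33 on day 7, where 44.7%, 45.9% and 52.6% of all genes did. *Cdkn1a* stood at 54.8, 59.3 and 36.3 CPM on day 0, 1508, 999 and 1886 CPM on day 1, 437, 619.5 and 478 CPM on day 3 and 656, 685 and 598 CPM on day 7 in *Krt8–/–* AECs. As in *Krt8+/+* AECs, day 1 was highest and no group overlapped day 0. Its log2 fold change was 4.87 (SE 0.27, adjusted p = 4.46e-11) on day 1 and 3.69 (SE 0.26, adjusted p = 3.24e-10) on day 7 by edgeR, higher in 3 of 3 isolations.

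*Trp53* stood at 25.1, 29.8 and 31.1 CPM on day 0, 113, 142 and 113 CPM on day 1, 115, 128 and 110.5 CPM on day 3 and 148, 143 and 127 CPM on day 7 in *Krt8–/–* AECs. *Mdm2* stood at 92.2, 96.9 and 67.3 CPM on day 0, 421, 294 and 459 CPM on day 1, 215, 171 and 194 CPM on day 3 and 291, 266 and 404 CPM on day 7. Both genes were higher in every cultured library than in every fresh one. *Pmaip1* stood at 0.504, 0.101 and 0.618 CPM on day 0, 24.1, 13.3 and 17.6 CPM on day 1, 35.4, 53.7 and 55.6 CPM on day 3 and 504, 689.9 and 336 CPM on day 7, ordered by day without overlap. *Gdf15* stood at 6.19, 4.45 and 3.17 CPM on day 0, 92.7, 80.7 and 129.5 CPM on day 1, 17.3, 14.8 and 15.5 CPM on day 3 and 46.4, 61.0 and 39.0 CPM on day 7. Its day 3 libraries again lay between day 0 and the other cultured days. *Sesn2* ranged from 39.0 to 52.6 CPM on day 0 and 130.5 to 366 CPM on day 1, with its lowest day 1 value in isolation 2 in this genotype too. *Gtse1* ranged from 0.792 to 2.704 CPM on day 0 and 40.7 to 76.1 CPM on day 1, *Psrc1* from 0.607 to 0.864 CPM on day 0 and 44.0 to 50.3 CPM on day 7, and *Tnfrsf10b* from 0.911 to 2.24 CPM on day 0 and 30.7 to 54.8 CPM on day 7. *Sesn1* ranged from 22.6 to 25.4 CPM on day 0 and 6.54 to 7.97 CPM on day 7, and *Polk* from 11.0 to 25.2 CPM on day 0 and 86.0 to 107 CPM on day 1. The directions of all these genes against day 0 were those seen in *Krt8+/+* AECs.

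By role, *Krt8–/–* AECs had 4 regulators higher on day 1 by edgeR, 7 cell cycle genes higher and 1 lower on each day, and 12 cell death genes higher on day 1. Of all genes 23.7, 25.4 and 28.6% were higher and 26.9, 26.6 and 29.9% lower on days 1, 3 and 7. A few calls of members rested on single isolations. On day 1 *Trp53inp1* (1.28) and *Pidd1* (1.33) did not pass without isolation 3 (0.73 and 1.22), and *Ei24* (0.52) did not without isolation 2 (0.61). *Mdm4* fell on day 3 (-0.74) and day 7 (-0.80), but not without isolation 1 (-0.58 and -0.61) nor, on day 3, without isolation 2 (-0.65), and under library totals its values of -0.18 and -0.37 did not pass. *Ddit4* passed on day 3 (0.75) and day 7 (0.76), but not without isolation 1 (0.68 and 0.60) nor, on day 7, without isolation 2 (0.69). On day 7 *Rrm2b* (-0.83) did not pass without isolation 1 (-0.72) or isolation 3 (-0.71), and *Xpc* (-0.67) did not without isolation 3 (-0.47). Under library totals *Rrm2b* (-0.40), *Xpc* (-0.24) and *Ppm1d* (-0.30, in place of -0.73) did not pass on that day. *Perp* did not pass on day 3 (0.64), and without isolation 3 it did (0.66), as it also did under library totals.

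Between cultured days the *Krt8–/–* AECs gave 3 members higher and 13 lower from day 1 to day 3, against 13.4% and 10.2% of all genes (23.6% in either direction). Each isolation left out gave 1 higher, with 8, 8 and 6 lower without isolation 1, 2 or 3. *Gdf15* (-2.67), *Sesn2* (-2.45), *Cdkn1a* (-1.52) and *Mdm2* (-1.02) fell on the log2 scale and did so without each isolation in turn. From day 3 to day 7, 11 were higher and 1 lower, against 4.4% and 6.15% (10.5%), and under library totals 9 and 3, against 2.87% and 9.15%. The number higher was 8, 5 and 6 without isolation 1, 2 or 3. *Pmaip1* (3.40) and *Gdf15* (1.62) rose and *Ddb2* (-1.27) fell, without each isolation too. Between day 1 and day 7, 7 were higher and 8 lower, against 19.7% and 18.7% (38.4%), with 3 higher without isolation 2 and 4 lower without isolation 3. *Pmaip1* (4.80), *Psrc1* (2.07) and *Ckap2* (1.91) again stood among the higher and *Sesn2* (-1.89) and *Cdkn1a* (-1.18) among the lower members.

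The direct comparison of the genotypes asked whether loss of keratin 8 changed these genes. By edgeR 0 of 36 members passed on day 0, day 1, day 3, day 7, over days 1 to 7, or in the test of whether the genotype difference changed with day. Of all genes 0.0277% passed on day 0 (0.0111% higher and 0.0166% lower in *Krt8–/–* AECs) and over days 1 to 7 (0.00554% and 0.0222%), 0.0166% on each of days 1, 3 and 7, and 0.00554% in the test by day. At an unadjusted p under 0.05 there was 1 member on day 0, 0 on day 1, 1 on day 3, 0 on day 7, 1 over days 1 to 7 and 0 in the test by day. The shares of all genes at this threshold were 2.65, 3.54, 2.505, 1.41, 2.88 and 1.49% in the same order. DESeq2 called 0 members in each of these comparisons, and its unadjusted counts were 1, 0, 1, 0, 1 and 1, against 2.96, 3.83, 2.80, 1.67, 3.06 and 2.28% of all genes. Each isolation left out in turn also gave 0. On day 0 the ciliated and club cell sums were higher in *Krt8–/–* AECs, at 14861 to 20199 CPM against 6441 to 12719 CPM, and the AEC1 sums at 3339 to 3670 CPM against 2539 to 3131 CPM, and their part in these comparisons was not tested.

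Over days 1 to 7 the members' log2 differences, *Krt8–/–* minus *Krt8+/+*, ran from -0.59 to 0.33 with a median of -0.02. Their 95% intervals lay between -1.14 and 0.70, so a p that misses the threshold does not show that the genotypes were alike within less than this. For *Cdkn1a* the difference was 0.04 with an interval of -0.26 to 0.34, for *Trp53* -0.11 (-0.31 to 0.09), for *Mdm2* -0.09 (-0.36 to 0.19) and for *Pmaip1* 0.05 (-0.46 to 0.55). The members with the smallest unadjusted p were *Eda2r*, *Sfn* and *Ddb2*. In *Krt8–/–* AECs *Eda2r* stood at 1.66, 1.01 and 0 CPM on day 0, 10.7, 14.8 and 9.58 CPM on day 1, 7.75, 9.04 and 6.13 CPM on day 3 and 26.1, 28.8 and 38.6 CPM on day 7. On day 3 all *Krt8–/–* libraries lay below all *Krt8+/+* libraries, and on days 0, 1 and 7 the genotypes overlapped. Its log2 difference over days 1 to 7 was -0.59 (SE 0.26, 95% interval -1.14 to -0.04, edgeR adjusted p = 1, lower in 3 of 3 isolations). Within isolations it was -0.65, -0.51 and -0.56, and the part of sex in it was not tested.

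*Sfn* stood at 17.7, 26.8 and 14.9 CPM on day 0, 766, 797 and 957 CPM on day 1, 909.7, 646 and 953 CPM on day 3 and 1009, 1114 and 521 CPM on day 7 in *Krt8–/–* AECs. The genotypes overlapped on day 0 and day 7, and on days 1 and 3 the lowest *Krt8–/–* library lay above the highest *Krt8+/+* one. Its log2 difference over days 1 to 7 was 0.33 (SE 0.18, 95% interval -0.03 to 0.70, edgeR adjusted p = 1, higher in 3 of 3 isolations). *Ddb2* stood at 20.6, 25.4 and 21.9 CPM on day 0, 10.9, 8.62 and 7.94 CPM on day 1, 7.88, 7.35 and 9.22 CPM on day 3 and 3.77, 4.05 and 2.296 CPM on day 7. On day 0 all *Krt8–/–* libraries lay below the *Krt8+/+* ones and on day 3 above them, with overlap on days 1 and 7. Its log2 difference over days 1 to 7 was 0.23 (SE 0.14, 95% interval -0.07 to 0.53, edgeR adjusted p = 1, higher in 3 of 3 isolations). The member under an unadjusted p of 0.05 on day 0 was *Phlda3*, with a log2 difference of 0.37 (95% interval 0.08 to 0.67).

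Some members passed against day 0 in 1 genotype and not in the other. On day 1 these were *Bbc3* in *Krt8+/+* AECs and *Ei24* and *Pidd1* in *Krt8–/–* AECs, and on day 3 *Xpc* in *Krt8+/+* and *Ddit4* in *Krt8–/–* AECs. In the edgeR test of the genotype difference by day their unadjusted p-values were 0.295 for *Bbc3*, 0.716 for *Ei24*, 0.603 for *Pidd1*, 0.699 for *Xpc* and 0.831 for *Ddit4*, so none of these differences between genotypes was shown.

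**Figure D3:**
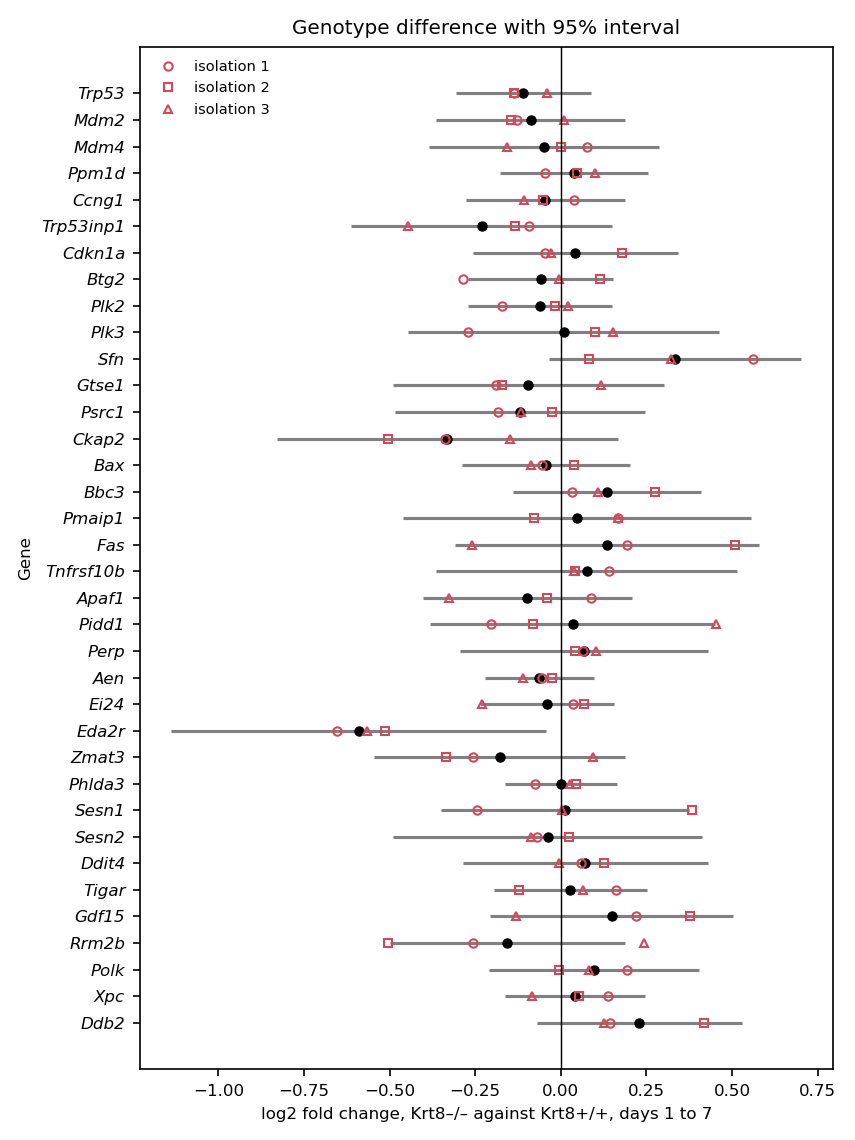
Log2 difference between *Krt8–/–* and *Krt8+/+* AECs over days 1 to 7 (horizontal) for the 36 members (vertical), as a black dot with its 95% interval, with red symbols for the isolations. The fitted differences ran from -0.59 (*Eda2r*) to 0.33 (*Sfn*), and 0 of 36 passed edgeR's adjusted threshold.

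Levels of different members were compared per kilobase of exon. In fresh *Krt8+/+* AECs *Btg2* had the highest level, at 125 CPM per kb, followed by *Perp* at 44.7 and *Ccng1* at 36.5 CPM per kb. The lowest was *Eda2r* at 0.095 CPM per kb, and *Pmaip1* stood at 0.167 CPM per kb. They rest on 20 and 18 counts over the 3 libraries, so the order at the low end is uncertain. On day 7 *Sfn* had the highest level, at 519 CPM per kb, followed by *Ccng1* at 292, *Cdkn1a* at 199 and *Pmaip1* at 169 CPM per kb. The order of *Cdkn1a* and *Pmaip1* is uncertain, since *Pmaip1* had an SD of 202 CPM around a mean of 461 CPM (n = 3). The lowest on day 7 was *Ddb2*, at 1.24 CPM per kb, next to *Rrm2b* at 1.40 CPM per kb. Their order is uncertain, since *Rrm2b* had an SD of 3.26 CPM around a mean of 12.8 CPM (n = 3). In *Krt8–/–* AECs *Btg2* was the highest on day 0, at 120.2 CPM per kb, and the lowest was *Pmaip1* at 0.149, next to *Eda2r* at 0.151 CPM per kb. The order of these low levels is uncertain, since *Eda2r* had an SD of 0.834 CPM around a mean of 0.889 CPM (n = 3). On day 7 *Sfn* (546 CPM per kb) and *Ccng1* (281) were again the highest, followed by *Pmaip1* (187) and *Cdkn1a* (182), and *Ddb2* (1.23) was the lowest. The order of *Pmaip1* and *Cdkn1a* is uncertain here too, since *Pmaip1* had an SD of 177 CPM around a mean of 510 CPM (n = 3).

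Other genes of the pathway were counted from 3 further lists, of genes that act upstream of p53, of other p53 targets and of cell cycle genes repressed through p53 and p21. Of 23 upstream genes tested, 7 rose and 7 fell on day 1 in *Krt8+/+* AECs, 8 and 6 on day 3 and 8 and 8 on day 7, with medians of 0.07, 0.26 and 0.14 on the log2 scale. On day 1 that was 30.4% in each direction, near the 26.2% and 28.5% of all genes. The shares of all genes were 26.1% and 27.8% on day 3 and 28.6% and 30.2% on day 7. Under library totals the upstream counts were 11 and 5, 14 and 2, and 11 and 6. All genes then had 39.8% and 17.3%, 45.4% and 15.4%, and 41.6% and 21.1% higher and lower. On day 1, 4 upstream genes fell without isolation 1 and 4 rose without isolation 2. Among the 7 that rose on day 1 were *Rpl5* and *Rpl11*, ribosomal proteins that can bind *Mdm2*, with log2 fold changes of 1.63 and 0.95, and the checkpoint kinase *Chek1* (1.62). Among the 7 that fell were *Prkdc* (-1.31) and *Hipk2* (-1.05), which encode kinases that act on p53, and the damage-response ligase *Rnf8* (-1.04). *Rpl11* did not pass without isolation 2 (0.77), nor *Prkdc* without isolation 1 (-0.99).

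Among 33 other p53 targets, 13 rose and 10 fell on day 1, 12 and 12 on day 3 and 14 and 11 on day 7 in *Krt8+/+* AECs, with medians of 0.26, 0.06 and 0.30. Under library totals the counts were 17 and 6, 17 and 6, and 18 and 7. Day 1 had 39.4% higher and 30.3% lower, against 26.2% and 28.5% of all genes. All genes had 26.1% and 27.8% on day 3, and 28.6% and 30.2% on day 7. Without isolation 2, 5 of the targets fell on day 1, and without isolation 3, 7 fell on day 7. The targets' medians lay near those of all genes, while single targets ran from -3.44 to 6.67 on day 1. *Lif*, a cytokine gene, rose from 1.91, 0.650 and 0.332 CPM to 53.2, 53.1 and 41.3 CPM. *Hbegf*, which encodes a ligand of the EGF receptor, stood at 37.7, 26.5 and 35.1 CPM on day 0 and 540.2, 132 and 524 CPM on day 1, lowest in isolation 2. Of the targets that fell on day 1, *Dram1*, a gene of a lysosomal membrane protein, stood at 2529, 2618 and 2880.2 CPM on day 0 and 469, 41.0 and 251 CPM on day 1, again lowest in isolation 2. *Rprm*, a cell cycle inhibitor gene, and *Pank1*, a kinase gene of coenzyme A synthesis, had log2 fold changes of -3.44 and -2.76.

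For the 28 repressed cell cycle genes the counts differed between day 1 and the later days. On day 1, 8 rose and 4 fell in *Krt8+/+* AECs (median -0.26), and 27 rose on day 3 and on day 7 (medians 3.50 and 3.13). Day 1 had 28.6% higher and 14.3% lower, against 26.2% and 28.5% of all genes. The share of all genes that rose was 26.1% on day 3 and 28.6% on day 7. Under library totals 10 of the list rose and 3 fell on day 1, against 39.8% and 17.3% of all genes. Without isolation 1, 4 rose on day 1, and without isolation 2, 2 fell. From day 1 to day 3 all 28 rose, against 14.4% of all genes. *Bub1* and *Cdc20* were among the genes of the list that fell most on day 1 and were named for that. *Bub1*, a spindle checkpoint kinase gene, stood at 20.9, 17.0 and 18.2 CPM on day 0, 2.79, 0 and 1.22 CPM on day 1 and 45.4, 39.0 and 26.0 CPM on day 3, so that it lay below the fresh level on day 1 and above it on day 3 in every isolation. *Cdc20*, which activates the anaphase-promoting complex, stood at 11.1, 27.5 and 14.2 CPM, 6.24, 4.01 and 6.52 CPM and 79.7, 64.6 and 58.3 CPM on the same days. *Bub1b* fell on day 1 (-1.27), but not without isolation 2 (-0.57). The genes of the list with the largest rise on day 1 were *Mcm3* (2.07) and *Mcm6* (1.54), which encode parts of the replicative helicase, and *E2f1* (1.48), a transcription factor gene.

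In *Krt8–/–* AECs the repressed list gave 3 genes higher and 5 lower on day 1, 28 higher on day 3 and 25 higher on day 7, with medians of -0.19, 3.09 and 2.63. On day 1, 1 was higher and 2 lower without isolation 1, and 9 were higher and 3 lower under library totals. The upstream list gave 5 higher and 6 lower on day 1, 7 and 6 on day 3 and 7 and 6 on day 7, and the other targets 13 and 9, 13 and 11, and 12 and 9. Of all genes, 23.7% were higher and 26.9% lower on day 1, 25.4% and 26.6% on day 3, and 28.6% and 29.9% on day 7. On day 1 the upstream counts were 3 lower without isolation 1, 3 and 3 without isolation 2 and 3 higher without isolation 3, and 9 and 2 under library totals. Under library totals the upstream counts were 13 and 3 on day 3 and 11 and 4 on day 7, and those of the other targets 17 and 6, 18 and 6, and 18 and 7. All genes then had 39.1% and 15.4%, 43.0% and 15.3%, and 40.6% and 21.2% higher and lower on days 1, 3 and 7. Other targets that fell numbered 5 on day 1 and 7 on day 3 without isolation 2.

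**Figure D4:**
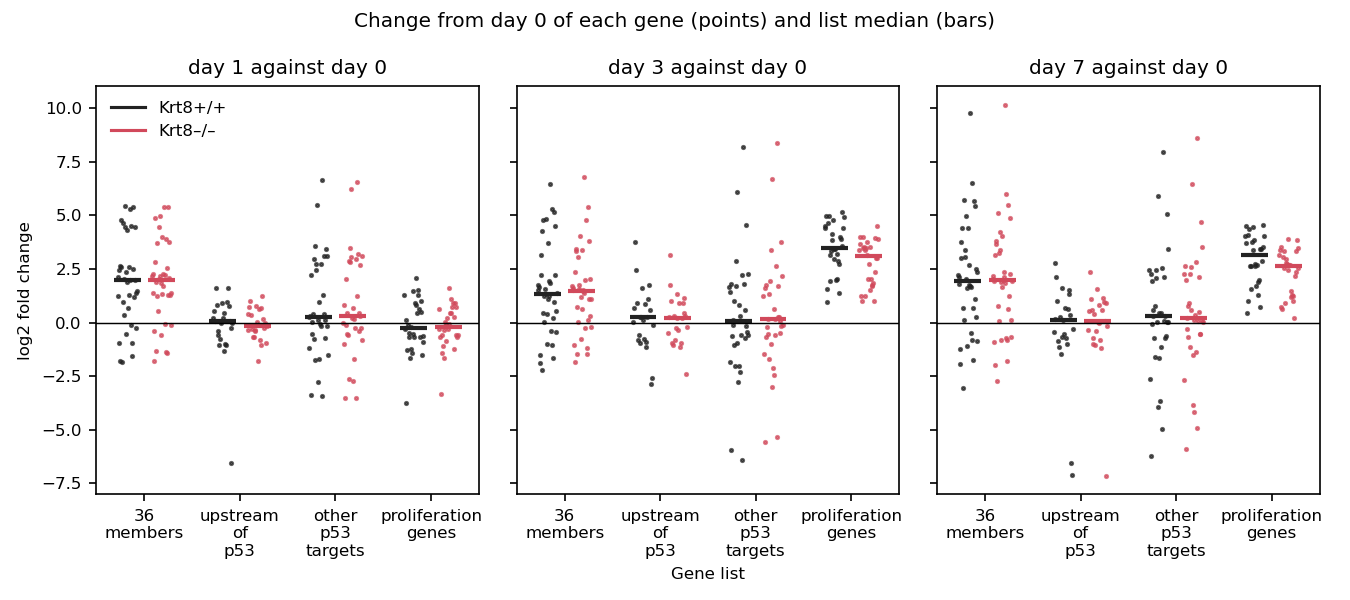
Log2 fold change against day 0 (vertical) of each gene (dots) and the median (bars) for the 36 members and 3 other pathway lists, by day of culture and genotype. The members' median was 1.97, 1.35 and 1.93 on days 1, 3 and 7 in *Krt8+/+* AECs, and that of the repressed cell cycle genes (proliferation genes on the axis) was -0.26, 3.50 and 3.13.

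Some members share sequence with other genes, and their values are uncertain to that extent. Those given here are examples, and the part of shared reads in any value was not tested. *Ddb2* and *Acp2* lie on opposite strands and share 652 bases of exon, and the strand used in counting is not given in the sources used here, so reads of this stretch cannot be assigned. *Acp2* stood at 66.1, 49.5 and 52.6 CPM on day 0 and 30.0, 23.0 and 17.8 CPM on day 1 in *Krt8+/+* AECs. *Sfn* has a copy, *Gm7850*, with 97.5% identity over 712 bases. *Gm7850* took 10756 counts over all libraries against 202439 for *Sfn*, and stood at 0.954, 0.433 and 0.443 CPM on day 0 and 36.1, 46.9 and 53.5 CPM on day 1 in *Krt8+/+* AECs. *Mdm4* and its pseudogene *Mdm4-ps* match at 94.1% over 4184 bases, but the pseudogene took 277 counts against 10713 for *Mdm4*. *Trp53* and *Trp53-ps* match at 97.7% over 353 bases, with 709 and 35934 counts for pseudogene and gene. *Tnfrsf10b*, with 7032 counts, matches 20 other genes at 90.03 to 97.5% over 201 to 405 bases, among them *Tanc1* with 19924 counts and *Dtnb* with 13463. *Rrm2b*, with 4471 counts, matches *Gm8616* (97 counts) at 96.1% over 1051 bases and shares 734 bases of exon with *Gm49085* (229 counts) on the other strand. *Cdkn1a* shares 273 bases with an antisense gene that had 118 counts against 223788.

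The promoters of the members were searched for the p53 binding motif, since many of the members rose together. Windows from 250 bases before to 50 bases after the start of transcription came from RefSeq (GRCm38.p6), and 28 of the 36 members had at least 1. Those without were *Trp53inp1*, *Pmaip1*, *Tnfrsf10b*, *Perp*, *Zmat3*, *Rrm2b*, *Xpc* and *Ddb2*. A p53 half-site, the 10-base consensus element that p53 binds in pairs and that reads the same way on both strands, was found in 12 of these 28 members (42.9%) and in 2582 of 27025 genes with a window (9.55%). Some genes had more than 1 window, and by window the shares were 34.2% and 8.36%. The members were listed for their link to p53, so these shares are a description with no test. A full match, 2 half-sites with 0 to 13 bases between them, was found in 1 member, *Cdkn1a*, and in 20 of 27025 genes (0.074%). Another window of *Cdkn1a*, at chr17:29093519-29093818, held no half-site. *Gtse1*, *Sesn1* and *Polk* also had another window without a half-site. The cell cycle element TTTGAA was found on either strand in 5 of 28 members (17.9%) and in 20.2% of genes, and CCAAT in 17 of 28 (60.7%) and in 41.1% of genes. A match is a description of the letters in the window and shows no binding. The *Cdkn1a* window with the full match lies at chr17:29090729-29091028 on the plus strand. It is shown with the 2 matched half-sites in capitals, 12 bases apart. Bases next to them that miss the consensus stay in lower case, and which stretch p53 binds was not tested.
Cdkn1a: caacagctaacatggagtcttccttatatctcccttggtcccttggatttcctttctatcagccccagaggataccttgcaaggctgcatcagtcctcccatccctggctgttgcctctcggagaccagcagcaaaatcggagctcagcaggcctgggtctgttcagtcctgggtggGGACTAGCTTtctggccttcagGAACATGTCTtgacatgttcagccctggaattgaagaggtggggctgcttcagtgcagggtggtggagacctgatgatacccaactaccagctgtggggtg
In *Krt8+/+* AECs this gene was highest on day 1 of culture.

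The half-sites of the other members with a match are shown in capitals with 10 bases on each side, 5′ to 3′ on the strand of the gene, so that they can be compared. They lie at chr10:117710925-117710954 (*Mdm2*, minus strand), chr11:40755452-40755481 (*Ccng1*, minus), chr11:69580274-69580303 (*Trp53*, plus), chr11:85311112-85311141 (*Ppm1d*, plus), chr15:85859945-85859974 (*Gtse1*, plus), chr8:22186003-22186032 (*Ckap2*, minus), chr7:45467080-45467109 (*Bax*, minus), chr7:78895927-78895956 (*Aen*, plus), chr9:36797325-36797354 (*Ei24*, minus), chr10:41887256-41887285 (*Sesn1*, plus) and chr13:96519399-96519428 (*Polk*, minus).
Mdm2: agtcggatagGAACTTGCCTagcgaccatt
Ccng1: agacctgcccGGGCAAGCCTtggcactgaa
Trp53: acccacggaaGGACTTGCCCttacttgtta
Ppm1d: gggcgggggcGAGCTTGCTCttcttgactc
Gtse1: gagcaagttgGGGCTTGCCTctgacttgcc
Ckap2: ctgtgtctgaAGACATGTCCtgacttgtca
Bax: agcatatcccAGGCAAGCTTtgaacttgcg
Aen: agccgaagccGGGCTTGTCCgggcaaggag
Ei24: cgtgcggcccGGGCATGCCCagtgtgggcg
Sesn1: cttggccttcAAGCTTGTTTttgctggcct
Polk: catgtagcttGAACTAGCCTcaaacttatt
Of these genes, *Mdm2*, *Ccng1*, *Trp53*, *Gtse1*, *Ckap2*, *Bax*, *Aen* and *Polk* rose on day 1 in *Krt8+/+* AECs, *Sesn1* fell, and *Ppm1d* and *Ei24* did not pass by edgeR. Of the members with a window and no half-site, *Apaf1*, *Ddit4*, *Eda2r*, *Fas*, *Gdf15*, *Phlda3*, *Plk2*, *Plk3*, *Psrc1*, *Sesn2*, *Sfn* and *Tigar* rose on that day too, *Bbc3* and *Btg2* fell, and *Mdm4* and *Pidd1* did not pass. Members thus rose with and without a half-site in the window.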

How the data were processed

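Bulk RNA of 24 libraries was analyzed, with 3 isolations for each combination of *Krt8* genotype (WT, KO) and day of culture (0, 1, 3, 7). The authors deposited a table of gene counts with 55426 entries, of which 55421 are Ensembl identifiers and 5 are reporter entries with 0 counts, left out here. The submitters' processing notes name cutadapt 2.3, STAR 2.7.8a, RSEM 1.3.3 and GRCm38. Library totals were 10184439 to 19483386 counts.

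Genes were filtered by expression (minimum count 10, minimum total 15), which left 18046, and fitted with edgeR 4.0.16 in R 4.3.3 by quasi-likelihood with TMM factors and 1 mean per group, with 16 residual degrees of freedom. Tests were 2-sided, p-values were adjusted over all 18046 genes by Benjamini and Hochberg, and the threshold was 0.05. Comparisons were each day against day 0 and day 7 against day 1 within genotype, and genotype on each day, over days 1 to 7 (weights 1/6, 1/2 and 1/3) and by day. Day 3 against day 1 and day 7 against day 3 were added after the values were seen. Members and lists were chosen with earlier results of these data known. The fit was also run on simulated data, and no outcome of that run is given here.

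Libraries that share a date (6/17/2021, 7/14/2021 or 8/3/2021) were taken as 1 isolation. Deviations from group means of libraries of 1 isolation correlated at 0.0573 to 0.548 between genotypes and at 0.0295 to 0.365 between day 0 and later days, and the isolation as a block was an alternative. Other alternatives were DESeq2 1.42.0, RLE factors, library totals without TMM, no filter, each isolation left out, equal weights of days, and only the groups compared.

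Library values were given for *Trp53*, *Mdm2* and *Cdkn1a*, for up to 3 called members per role with the largest log2 fold change on any day against day 0 in *Krt8+/+* AECs and the same direction in 3 isolations, and for the 3 members with the smallest p between genotypes. Values were given for up to 3 genes per direction of each other pathway list on day 1. Promoters were read with Python 3.11.15.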

Additional observations from a re-analysis of the deposited data

How the results depend on the processing

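The number of members called kept within 1.5 times its value under every alternative for the members that rose against day 0 in both genotypes, and the genotype comparisons gave 0 of 36 by edgeR under all of them, and 0 were called by DESeq2. Over days 1 to 7, 1 member had an unadjusted p under 0.05 by edgeR and 1 by DESeq2, against 2.88% and 3.06% of all genes. The members' medians against day 0 ran from 1.81 to 2.46, 1.33 to 1.95 and 1.87 to 2.38 on days 1, 3 and 7 in *Krt8+/+* AECs and from 1.76 to 2.47, 1.41 to 2.05 and 1.85 to 2.41 in *Krt8–/–* AECs.

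Counts that moved by more were as follows, and the cause was not tested. Against day 0, members lower numbered 7 on day 3 in *Krt8+/+* AECs and 4 under library totals, 8 on day 7 in *Krt8+/+* AECs and 5 to 7 with 1 isolation left out, and 8 on day 7 in *Krt8–/–* AECs and 4 under library totals. From day 1 to day 7, members higher numbered 9 in *Krt8+/+* AECs and 5 to 6 with 1 isolation left out. In *Krt8–/–* AECs they numbered 7 and 3 to 6, and members lower 8 and 4 to 9. From day 1 to day 3 in *Krt8+/+* AECs, 3 were higher and 0 to 1 with 1 isolation left out or 1 with only the groups compared in the fit, and 10 were lower and 6 to 9 or 6. In *Krt8–/–* AECs 3 were higher and 1 to 1, and 13 lower and 6 to 8. From day 3 to day 7 in *Krt8+/+* AECs, 11 were higher and 2 to 6 with 1 isolation left out. The 1 lower became 0 to 0 with 1 isolation left out, 2 under library totals, 0 without the filter and 0 with only the groups compared. In *Krt8–/–* AECs 11 were higher and 5 to 8 with 1 isolation left out, and 1 was lower, 3 under library totals and 3 by DESeq2.

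Some log2 values against day 0 changed sign, and the cause was not tested. Under library totals *Ppm1d* was 0.35 and 0.23 on days 1 and 3 in *Krt8+/+* AECs and 0.41 and 0.32 in *Krt8–/–* AECs, and *Xpc* was 0.19 and 0.18, and 0.38 and 0.38, of which *Ppm1d* on day 1 and *Xpc* on days 1 and 3 in *Krt8–/–* AECs passed as higher. *Bbc3* was 0.0865 on day 1 in *Krt8–/–* AECs. With only the groups compared *Ppm1d* was 0.0179 on day 1 in *Krt8–/–* AECs. With 1 isolation left out, *Ppm1d* ran from -0.27 to 0.22 on day 1 in *Krt8+/+* AECs and from -0.28 to 0.25 in *Krt8–/–* AECs, and *Xpc* from -0.29 to 0.16 on day 1 in *Krt8–/–* AECs. On day 3 *Ei24* ran from -0.0325 to 0.13 in *Krt8+/+* AECs and from -0.0275 to 0.13 in *Krt8–/–* AECs, and *Sesn2* from -0.14 to 0.30 in *Krt8–/–* AECs.

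With the isolation as a block, day 7 in *Krt8+/+* AECs gave 24 members higher in place of 25, since *Ddit4* (0.67) no longer passed, and day 1 in *Krt8–/–* AECs gave 5 lower in place of 4, since *Mdm4* (-0.59) did. The block changed no other call against day 0. Between cultured days it gave 10 higher in place of 9 from day 1 to day 7 and 11 lower in place of 10 from day 1 to day 3 in *Krt8+/+* AECs. In *Krt8–/–* AECs it gave 8 higher and 9 lower in place of 7 and 8 from day 1 to day 7, 14 lower in place of 13 from day 1 to day 3, and 13 higher in place of 11 from day 3 to day 7. Depth limits members with few counts on day 0, such as *Pmaip1*, whose fold changes rest on few fresh counts.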
